A study of Mus musculus with 40 samples.

Results

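Mitochondrial ribosomal proteins were examined in the liver as the 70 genes whose symbols begin with Mrpl or Mrps and a digit and whose mean normalized count over 40 mouse livers was at least 10. They were 70 of 13776 genes tested and of 17724 genes with a row. Of 71 genes with such a symbol, 1 fell below that mean. It was Mrpl28, at a mean of 9.95, while the lowest gene retained, Mrpl23, had a mean of 95.9. All 70 members passed the filter on low values, because the filter and the rule of choice are the same. They comprised 69 protein-coding genes and 1 processed pseudogene, Mrpl23-ps1. The subunit genes Mrpl11, Mrpl16, Mrpl43, Mrpl49, Mrpl57, Mrps16, Mrps27 and Mrps30 were not analysed here.

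Liver RNA was sequenced from C57BL/6NJ mice that lacked exon 3 on both copies of Ghr (d3), which encodes the growth hormone receptor, and from wild-type mice (WT), in males (M) and females (F), on 40% calorie restriction (CR) or fed ad libitum (AL). There were 8 groups of 5 livers: d3 CR M, d3 CR F, d3 AL M, d3 AL F, WT CR M, WT CR F, WT AL M and WT AL F. The deletion is carried by every cell and is not confined to the liver, a count per gene does not check the loss of a single exon, and the line was propagated by fertilizing C57BL/6NJ oocytes in vitro with sperm of d3 males. The labels put the start of the diets at weaning at 30 days, their length at 30 days and death at about 2 months, whereas the extraction protocol gives 28 to 34 days, and which age holds is not settled here.

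Mitochondria have their own ribosome, which makes the few proteins encoded by mitochondrial DNA, all of them subunits of the respiratory chain and ATP synthase. Its RNA is transcribed from mitochondrial DNA, but its proteins are encoded in the nucleus, made in the cytosol and imported. Part of them descend from bacterial ribosomal proteins and part are specific to mitochondria. In the liver, a tissue rich in mitochondria, they belong to the machinery that keeps the respiratory chain supplied, and lower Mrps5 expression was linked to longer life in mouse strains and worms in earlier work.

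Each library is a separate mouse, and the depth recovered from the normalized counts was 21132490 to 44195300 reads. The hepatocyte markers were far above 0 in every liver, with Alb at 1472800 normalized counts or more. RNA of skeletal muscle was present in unequal amounts: 17 livers had a mean log2 level of at least 8 over the muscle marker list, 10 on CR and 7 on AL. The summed muscle markers had a median of 15180 normalized counts on CR (424.9 to 2309000) and of 1099 on AL (409.3 to 275000). By genotype the median was 10640 in d3 livers (409.3 to 2309000) and 1075 in WT livers (481.1 to 935100). Myh4, a fast muscle myosin, was at 0 in 18 livers. WT AL M replicate 5 also held exocrine pancreas markers, at a sum of 50909 normalized counts, against at most 1634.5 in the other livers. Adipocyte markers differed by genotype, with a median sum of 707.5 normalized counts in d3 livers (6.49 to 9666) and 21.6 in WT livers (7.78 to 4158), and 1 of the 5, Adig, was at 0 in 11 livers. The summed Kupffer cell markers differed by diet, with a median of 4556 normalized counts on CR (1987 to 12003) and 7344 on AL (4411 to 9978). Clec4f, Cd5l, Csf1r, Vsig4 and Timd4 had lower group medians on CR in both sexes and genotypes. Marco had higher group medians on CR in d3 males (234, against 122.5 on AL) and WT females (233, against 212). Adgre1 did so in males of both genotypes, and was at 0 in 4 livers. The part of these cells in the changes of the members was not tested. The running numbers in the sample titles were 81 to 150 in d3 mice on CR and 2 to 77 in d3 mice on AL, so diet in d3 mice and the order of these numbers cannot be told apart. They were 87 to 150 in d3 CR M and 41 to 86 in WT CR M, so the same holds for genotype in CR males. In bulk liver, fewer cells of a type and less RNA per cell cannot be told apart either.

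Sequences are shown for some of the members described here. Mrpl23, on chromosome 7 at 142532686 to 142540747 on the plus strand, encodes a large subunit protein of bacterial type. Mrpl23-ps1, on chromosome 2 at 74591330 to 74591909 on the minus strand, is its processed copy (GRCm38, GENCODE M21). Their transcripts of 692 and 580 bases align over 540 bases with 0 mismatches, so reads from this stretch fit both, and the division of reads between them is uncertain. The 60 bases in the middle of the stretch, bases 391 to 450 of the Mrpl23 transcript and 242 to 301 of the Mrpl23-ps1 transcript, read the same in each.
Mrpl23: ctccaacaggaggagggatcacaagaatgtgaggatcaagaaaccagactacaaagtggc
Mrpl23-ps1: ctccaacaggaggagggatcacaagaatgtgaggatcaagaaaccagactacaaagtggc

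Promoters, taken as 250 bases before to 50 after the start of the gene, were found for 60 of the 70 members in the RefSeq table (GRCm38.p6), with the start nearest the GENCODE start used where there were several. They were searched on both strands for 3 exact motifs: GCGCATGC, of the type bound by NRF1, CCGGAAG, of the type bound by the ETS factor GABPA, and AANATGGCG, of the type bound by YY1. These 3 factors are known regulators of nuclear genes for mitochondrial proteins. The last 3 letters of the ETS motif can also be the first 3 of the YY1 motif, but no member's promoter held overlapping matches of 2 motifs (0 of 60). At least 1 motif stood in 51.7% of the members' promoters, against 23.6% of 10646 promoters of genes tested and 12.8% of all 32851 promoters in the table. The NRF1 type stood in 13.3% of the members' promoters, against 4.77% of those of genes tested and 2.71% of all. The ETS type stood in 35% of the members' promoters, against 16.3% of those of genes tested and 8.86% of all. The YY1 type stood in 15% of the members' promoters, against 4.77% of those of genes tested and 2.38% of all. Among members with a promoter, at least 1 motif stood in 50% of the 32 called higher on CR, 75% of the 4 called lower and 50% of the 24 not called. The YY1 type stood in 21.9%, 25% and 4.17% of them in that order, counts too small to compare. A match is a description of the letters and not of a bound site.

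Mrpl58 and Mrps18b are shown as the members higher and lower on CR, by the test described below, with the most matches, and Mrpl48 as the member that differed most between the sexes. Motif matches are in capitals. Mrpl58 encodes a peptidyl-tRNA hydrolase built into the large subunit, and its promoter (chr11:115403502-115403801, plus strand) held 2 ETS type matches and 1 of YY1 type. Mrps18b is 1 of 3 mammalian relatives of bacterial S18, and its promoter (chr17:35916391-35916690, minus strand) held 2 NRF1 type matches and 1 of ETS type. Mrpl48 encodes a mitochondria-specific large subunit protein, and its promoter (chr7:100608252-100608551, minus strand) held none of the 3 motifs in this window.
Mrpl58: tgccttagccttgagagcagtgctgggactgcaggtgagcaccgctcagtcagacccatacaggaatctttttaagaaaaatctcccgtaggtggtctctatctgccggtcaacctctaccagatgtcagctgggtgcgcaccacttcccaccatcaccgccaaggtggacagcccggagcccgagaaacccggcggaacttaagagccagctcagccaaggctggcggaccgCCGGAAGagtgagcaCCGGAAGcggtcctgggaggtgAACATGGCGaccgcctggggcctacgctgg
Mrps18b: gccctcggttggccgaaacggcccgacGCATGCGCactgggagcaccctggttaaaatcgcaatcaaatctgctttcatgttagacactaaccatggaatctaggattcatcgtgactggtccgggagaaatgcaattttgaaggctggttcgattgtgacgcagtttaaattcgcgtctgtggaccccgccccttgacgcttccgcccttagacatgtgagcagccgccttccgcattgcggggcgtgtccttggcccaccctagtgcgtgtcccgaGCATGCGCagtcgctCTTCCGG
Mrpl48: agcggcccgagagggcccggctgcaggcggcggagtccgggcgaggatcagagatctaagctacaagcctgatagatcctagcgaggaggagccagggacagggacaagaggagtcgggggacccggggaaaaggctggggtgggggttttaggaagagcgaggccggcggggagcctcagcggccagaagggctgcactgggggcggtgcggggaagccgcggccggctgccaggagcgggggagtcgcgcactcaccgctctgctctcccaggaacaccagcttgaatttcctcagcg

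Of the 69 protein-coding members, 28 (40.6%) began within 1000 bases of the start of a protein-coding gene on the opposite strand. The share among 13246 protein-coding genes tested was 14.6%. Pairs that run apart and pairs that overlap at their starts were counted alike. Mrpl46 and Mrps11, encoding a large and a small subunit protein, were such a pair with each other, and Mrpl36 was paired with Ndufs6, a complex I subunit gene. These named pairs overlap at their starts. Exons of 24 members overlap an annotated gene on the opposite strand and those of 5 a gene on the same strand. On the opposite strand, for example, Mrpl48 overlaps Rab6a, Mrpl36 Ndufs6, Mrpl14 Tmem63b, Mrpl18 Tcp1, Mrpl44 Wdfy1, Mrpl46 Mrps11, Mrps25 Nr2c2, Mrpl12 Gm16755 and Mrps18b Gm16279. Mrpl33 overlaps Gm43809 on the same strand, and Mrpl53 overlaps a gene on each strand, Ccdc142os and Gm42688. The sources used here do not say whether counting used strand, so reads from these overlaps cannot be told apart.

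The members were expressed in every liver, and differed far more in level from each other than across groups. Levels per kilobase of median transcript length, which are approximate, were highest for Mrps21 (2738 normalized counts per kilobase), Mrpl30 (2474) and Mrpl12 (2242), and lowest for Mrpl19 (102), Mrpl40 (117) and Mrps25 (120). Mrps21 encodes a small subunit protein, and Mrpl12 forms part of the stalk of the large subunit that contacts translation factors. Within groups the SD of the log2 level was smallest for Mrpl37 (0.0929), Mrps9 (0.109) and Mrpl18 (0.114) and largest for Mrpl40 (0.436), Mrpl23 (0.344) and Mrpl34 (0.246). The share of a member's log2 variance that lay between the 8 groups was 90.8% for Mrpl48.

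The level of the whole set was summarised per liver as the mean over members of the log2 normalized count plus 1, centred per gene over the 40 livers. It averaged -0.02 ± 0.09 in d3 CR M and -0.14 ± 0.09 in d3 AL M (SD, n = 5 each). It averaged 0.11 ± 0.11 in WT CR M and -0.05 ± 0.13 in WT AL M (SD, n = 5 each). In females it averaged 0.18 ± 0.17 in d3 CR F and -0.09 ± 0.06 in d3 AL F, and -0.03 ± 0.11 in WT CR F and 0.04 ± 0.15 in WT AL F (SD, n = 5 each). In 3 of the 4 pairs the CR mean was above the AL mean. In WT females it was below, but without WT AL F replicate 3 the means were -0.03 on CR and -0.02 on AL. As a share of all normalized counts the members summed to 0.221% in WT CR F and 0.196% in WT AL F, the opposite order. The groups on CR and AL overlapped in WT males, WT females and d3 males and did not overlap in d3 females, where the CR livers lay at 0.07 to 0.47 and the AL livers at -0.17 to -0.03. The d3 CR F replicate 3 stood apart at 0.47, against 0.07 to 0.13 in the other 4 livers of its group.

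**Figure D1:**
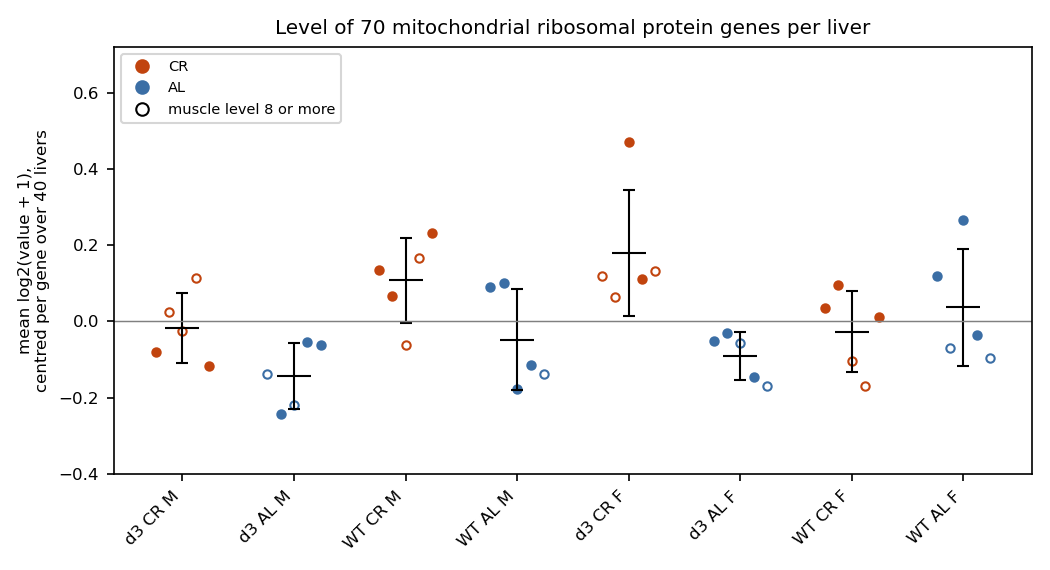
Mean centred log2 level of the 70 members in each liver (points) with the group mean and SD (bars, n = 5), CR in orange and AL in blue, open points for livers whose muscle level was at least 8. The d3 CR F livers lie at 0.07 to 0.47 and all d3 AL F livers at -0.03 or below.

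The first question was how calorie restriction moved these genes. In the mean of the 4 comparisons of CR with AL, 35 of 70 members rose on CR and 4 fell (limma, Benjamini-Hochberg adjusted p under 0.05 over all genes tested). Of all 13776 genes, 23.2% rose and 22.6% fell. The median log2 change over the members was 0.14, against 0.04 over all genes tested. The members that rose furthest were Mrpl23, Mrpl23-ps1, Mrps28, Mrpl48 and Mrps36, and those that fell were Mrpl34, Mrps2, Mrpl36 and Mrps18b. Assigned as deposited, Mrpl23 rose by 0.81 ± 0.11 and Mrpl23-ps1 by 0.63 ± 0.07 (log2, SE; limma adjusted p of 1.8e-07 and 3.31e-09). Of the 70 members, 20 had a change above 0 in all 4 comparisons and 4 a change below 0 in all 4. For no member did the 20 CR livers lie wholly to 1 side of the 20 AL livers. The changes were small, from -0.36 to 0.81 on the log2 scale. Muscle RNA, the more abundant on CR, moved with this comparison, and its part in the result was not tested. Adding the muscle level as a covariate gave 35 higher and 4 lower, and leaving out the 17 muscle-rich livers gave 23 higher and 3 lower.

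The counts varied between the 4 comparisons. In d3 females 32 members rose on CR and 0 fell, against 8.33% and 9.55% of all genes. In WT males 19 rose and 0 fell, against 10.1% and 11.4% of all genes. In d3 males 11 rose and 0 fell, against 9% and 10.5% of all genes, so the share that rose, 15.7%, was nearer that of all genes. In WT females 3 rose and 4 fell, against 4.56% and 7.11% of all genes, shares close to those of all genes. Members called lower were thus found in WT females and in none of the other 3 comparisons. The differences between these changes are tested further on. The median log2 change over members was 0.24 in d3 females, 0.14 in WT males, 0.11 in d3 males and -0.06 in WT females. Without the muscle-rich livers it was 0.37 in d3 females and 0.01 in d3 males, where the median of all genes was also 0.01. That fit left out 3 of the 5 d3 CR F livers and 3 of the 5 d3 CR M livers. The d3 CR F livers it kept were replicates 3 and 4, with members' levels of 0.47 and 0.11, so the 0.37 rests largely on replicate 3. In WT females the median was -0.01 without WT AL F replicate 3, and in WT males 0.10 without WT AL M replicate 3. Without d3 CR F replicate 3, 21 members rose in d3 females. Without WT CR M replicate 5 or WT AL M replicate 3, 12 rose in WT males. In d3 males 5 rose without d3 CR M replicate 4 or d3 AL M replicate 3, and 7 without d3 AL M replicate 2 or 5. In WT females 4 were called without WT CR F replicate 3 or WT AL F replicate 1. Without the muscle-rich livers the counts were 17 higher in d3 females, 11 in WT males, 1 in d3 males and, in WT females, 0 higher and 1 lower. With the 10 livers of each pair fitted alone, 14 rose in d3 females and 1 rose and 2 fell in WT females.

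**Figure D2:**
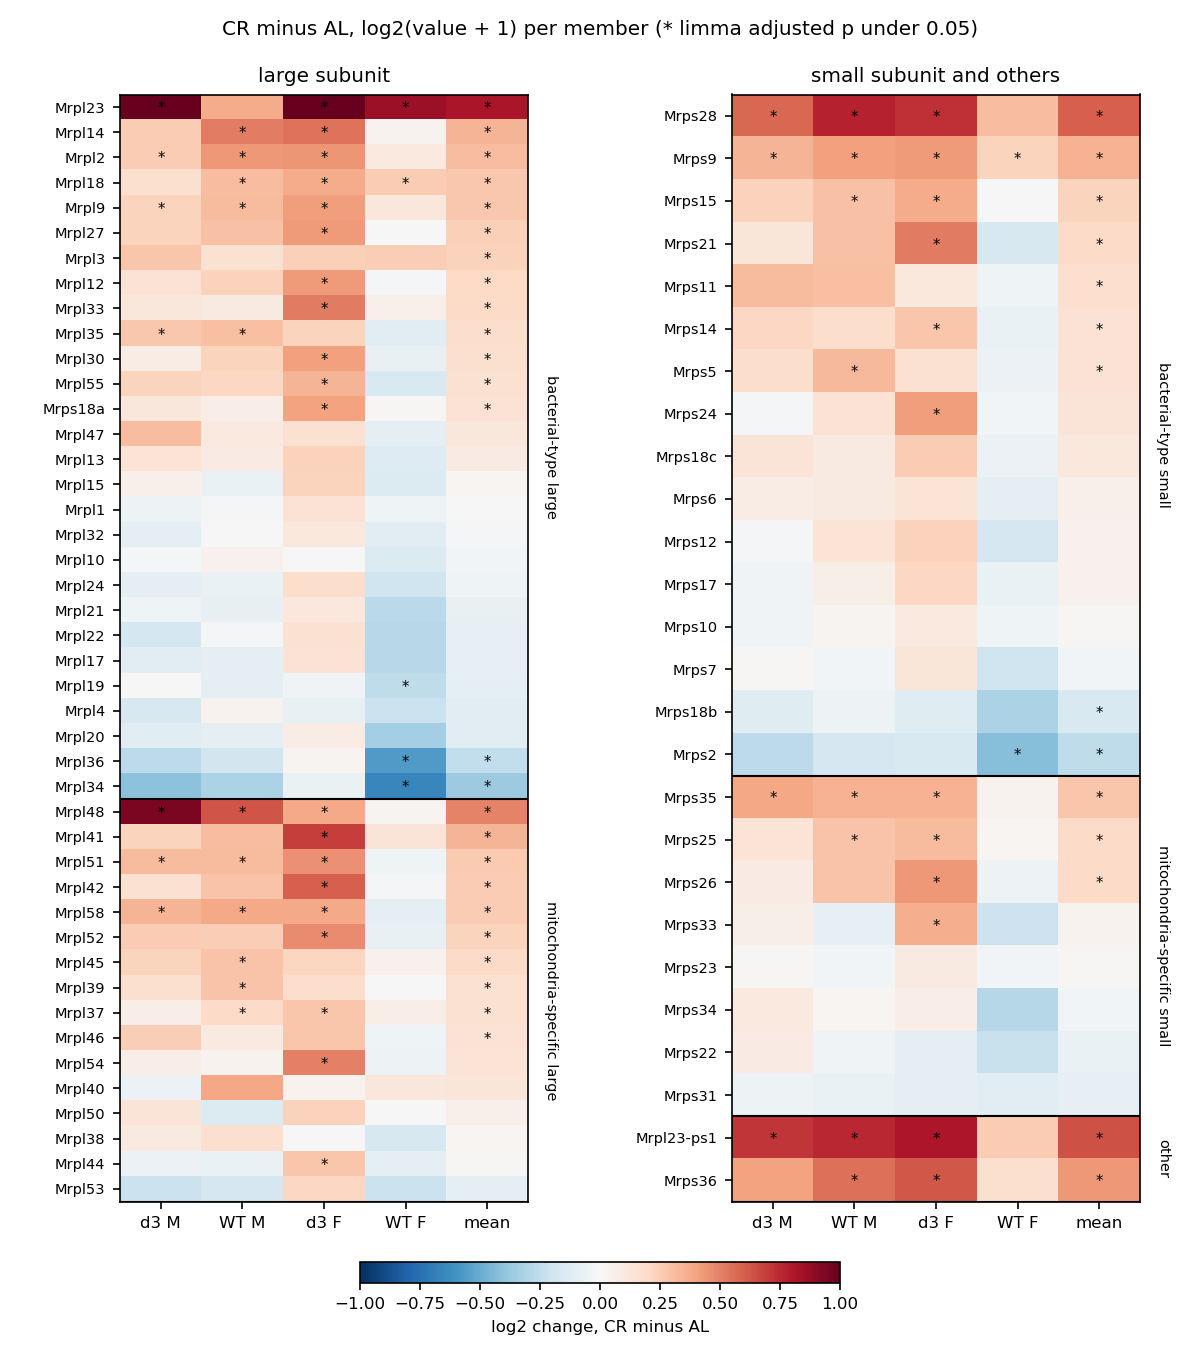
Log2 change of each member (rows) on CR relative to AL in d3 males, WT males, d3 females, WT females and the mean of the 4, red for higher on CR and blue for lower, with a star where the limma adjusted p is under 0.05. Stars are most frequent in d3 females, where 32 members rose, and least in WT females, where 3 rose and 4 fell.

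Mrps9, a small subunit protein of bacterial type, was the 1 member that rose in all 4 comparisons. Its normalized counts were 946, 955, 959, 1046 and 953 in d3 CR M, against 770.0, 787, 720.2, 792 and 770.1 in d3 AL M. In WT CR M they were 946, 925, 898, 942 and 1049, against 839, 762, 656, 637 and 698 in WT AL M. Every CR liver lay above every AL liver in these 2 comparisons. In d3 CR F its counts were 897, 925, 1121, 927 and 989, against 799.6, 736, 751, 668 and 657 in d3 AL F. In WT CR F they were 903, 894, 912, 752 and 920.5, against 751, 682, 787, 804 and 723 in WT AL F. In d3 females the groups again did not overlap, and in WT females 1 CR liver, at 752, lay within the AL range. The log2 changes of Mrps9 were 0.34 ± 0.075 in d3 males, 0.41 ± 0.075 in WT males, 0.43 ± 0.075 in d3 females and 0.22 ± 0.075 in WT females (SE), with limma adjusted p of 0.00113, 0.000109, 0.000121 and 0.0449. The call in WT females held in 2 of 10 fits that each left out 1 liver. Over the 4 comparisons the log2 change was 0.35 ± 0.04 (SE; limma adjusted p = 1.61e-09).

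For Mrpl23 and its pseudogene the sum is the surer quantity, since their transcripts align over 540 bases with 0 mismatches. Of the sum, 8.11 to 16.8% was assigned to Mrpl23. The summed normalized counts were 801, 872, 868, 1040.0 and 784 in d3 CR M, against 621, 439, 464, 591 and 486 in d3 AL M. In WT CR M they were 1051, 898, 800.0, 953 and 1105, against 566, 639, 464, 616 and 659 in WT AL M. CR and AL livers did not overlap in males of either genotype. In d3 CR F the sums were 916, 1072, 1294, 896 and 1044, against 585, 654, 566, 668 and 458 in d3 AL F. In WT CR F they were 987, 868, 923, 743 and 892, against 580.1, 716, 1064, 659 and 584 in WT AL F. In WT females WT AL F replicate 3, at 1064, exceeded all CR livers. Fitted as 1 row, a choice made after the transcripts were compared, the sum changed by 0.75 ± 0.14 in d3 males, 0.71 ± 0.14 in WT males and 0.83 ± 0.14 in d3 females (log2, SE; limma adjusted p of 0.000136, 0.000277 and 6.56e-05). In WT females it changed by 0.32 ± 0.14 and missed the threshold (limma adjusted p = 0.126). Over the 4 comparisons it rose by 0.65 ± 0.07 (log2, SE; limma adjusted p = 1.42e-09).

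Mrps28, a small subunit protein gene, rose by 0.60 ± 0.07 on the log2 scale over the 4 comparisons (SE; limma adjusted p = 1.02e-08). It averaged 651 ± 116 normalized counts in d3 CR M and 436 ± 63.3 in d3 AL M, and 734 ± 101 in WT CR M and 428 ± 33.1 in WT AL M (SD, n = 5 each). In d3 CR F it averaged 688 ± 111 and in d3 AL F 411 ± 26.4 (SD, n = 5 each). In WT females it averaged 574 ± 98.7 in WT CR F and 466 ± 117 in WT AL F (SD, n = 5 each) and was not called. Mrps36, which despite its symbol is known as a component of the 2-oxoglutarate dehydrogenase complex of the citric acid cycle, rose by 0.43 ± 0.08 (limma adjusted p = 1.84e-05). Mrps36 averaged 595 ± 200 normalized counts in d3 CR F and 372 ± 41.9 in d3 AL F (SD, n = 5 each). Its highest value in any liver, 920 normalized counts, was that of d3 CR F replicate 2. That liver also had the highest muscle level of all, at 16.7, so the d3 CR F mean is raised by a muscle-rich liver. The call of Mrps36 over the 4 comparisons held when that liver was left out. The part of muscle RNA in its rise was not tested. In WT CR M Mrps36 averaged 479 ± 62.1 and in WT AL M 329 ± 54.0 (SD, n = 5 each).

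The remaining large rises were spread over both subunits. Mrpl41, a mitochondria-specific large subunit protein, rose by 0.34 ± 0.07 and Mrpl14, at the face that meets the small subunit, by 0.34 ± 0.06 (log2, SE; limma adjusted p of 7.75e-05 and 1.84e-05). Mrpl2, a core protein of the large subunit, rose by 0.31 ± 0.04, and Mrps35, specific to the mitochondrial small subunit, by 0.28 ± 0.06 (log2, SE; limma adjusted p of 6.52e-07 and 0.000321). Mrpl12 rose by 0.20 ± 0.06 and Mrps5 by 0.15 ± 0.05 (log2, SE; limma adjusted p of 0.00714 and 0.00924). The calls of 37 of the 39 members held in all 40 fits that each left out 1 liver. Mrpl46 held in 19 and Mrps11 in 20 of them.

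The 4 members that fell on CR encode proteins of bacterial type, 2 of each subunit. Mrpl34 had 822, 860.4, 574, 591 and 474 normalized counts in d3 CR M, against 828, 775, 755, 971 and 997 in d3 AL M. In WT CR M it had 769.8, 689, 638, 748 and 859, against 1065, 1204, 712, 900.4 and 791 in WT AL M. In both of these comparisons the ranges overlapped. In d3 CR F it had 780.3, 719.7, 1188, 817 and 889, against 946, 1006, 907, 787 and 904 in d3 AL F. In WT CR F it had 661, 802, 616, 554 and 620.3, against 1303, 890.0, 1136, 909.7 and 898 in WT AL F. WT females were the 1 pair in which all CR livers lay below all AL livers. Mrpl34 fell by 0.65 ± 0.15 there and by 0.36 ± 0.08 over the 4 comparisons (log2, SE; limma adjusted p of 0.00419 and 0.000202). In d3 females its log2 change was -0.07 ± 0.15 (SE; limma adjusted p = 0.812).

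Mrpl36, which encodes a short zinc-binding protein of the large subunit, fell by 0.25 ± 0.06 over the 4 comparisons (log2, SE; limma adjusted p = 0.000389) and by 0.57 ± 0.11 in WT females (limma adjusted p = 0.000614). It averaged 509.8 ± 43.9 normalized counts in WT CR F and 763 ± 132 in WT AL F (SD, n = 5 each). Like all members, Mrpl36 was not called lower in d3 females or in males of either genotype. In the authors' deposited comparisons of d3 with WT, its log2 fold change was 0.37 in CR females and -0.26 in AL females, neither called. The overlapping gene Ndufs6 rose by 0.15 ± 0.06 over the 4 comparisons (log2, SE; limma adjusted p = 0.034). Ndufs6 changed by 0.45 ± 0.12 in d3 females and by -0.08 ± 0.12 in WT females (log2, SE; limma adjusted p of 0.00755 and 0.707). In males of either genotype Ndufs6 was not called. Mrps2, of the small subunit, fell by 0.25 ± 0.06 (limma adjusted p = 0.000925) and averaged 1162 ± 177 normalized counts in WT CR F and 1558 ± 263 in WT AL F (SD, n = 5 each). Mrps18b fell by 0.15 ± 0.06 (limma adjusted p = 0.0228), and its adjusted p was 0.126 without the muscle-rich livers.

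**Figure D3:**
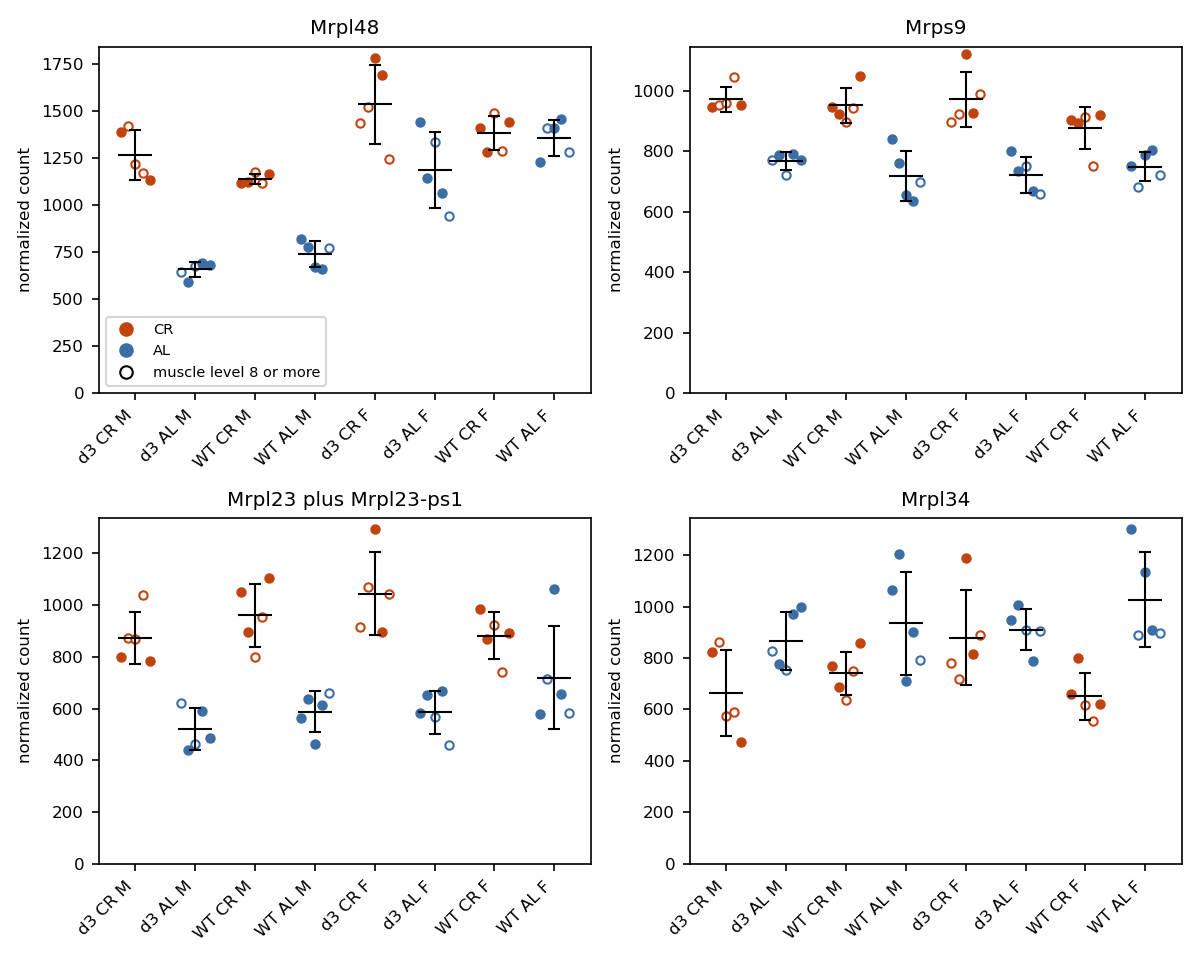
Normalized counts of Mrpl48, Mrps9, the sum of Mrpl23 and Mrpl23-ps1, and Mrpl34 in each liver (points), with the group mean and SD (bars, n = 5), CR in orange and AL in blue, open points for livers whose muscle level was at least 8. Mrpl48 lies at 590.1 to 818 in AL males and at 944 or more in the other livers, and Mrpl34 in WT females lies at 554 to 802 on CR and 890.0 to 1303 on AL.

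By subunit and origin, the mitochondria-specific large subunit proteins had 10 of 16 members higher and 0 lower on CR, with a median log2 change of 0.15. The bacterial-type large subunit proteins had 13 of 28 higher and 2 lower (median 0.10), and the bacterial-type small subunit proteins 7 of 16 higher and 2 lower (median 0.12). The mitochondria-specific small subunit proteins had 3 of 8 higher and 0 lower (median 0.02), and Mrps31, Mrps22 and Mrps34 among them had log2 changes of -0.08, -0.07 and -0.03. These counts describe the classes, and no difference between classes was tested.

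The counts of other genes of the same machinery are read beside the 23.2% of all genes that rose and the 22.6% that fell, and no difference from the members was tested. Of 4 mitoribosome proteins with other symbols, 3 rose: Dap3, a small subunit protein that binds GTP, by 0.36 ± 0.05, Aurkaip1 by 0.25 ± 0.06 and Gadd45gip1 by 0.21 ± 0.06 (log2, SE; limma adjusted p of 1.28e-07, 0.00119 and 0.00503). Of 23 assembly and rRNA modification genes 9 rose and 3 fell, with the rRNA methyltransferase gene Mrm1 up by 0.39 ± 0.09 and the helicase gene Ddx28 changed by -0.55 ± 0.06 (log2, SE). Of 12 mitochondrial translation factors 4 rose and 3 fell, with the elongation factor genes Tsfm and Tufm up by 0.34 ± 0.07 and 0.25 ± 0.06 and Mtif2, an initiation factor gene, changed by -0.19 ± 0.03 (log2, SE). Of 15 mitochondrial aminoacyl-tRNA synthetases 4 rose and 2 fell, with Sars2 at 0.28 ± 0.05 and Ears2 at -0.32 ± 0.06 (log2, SE). Of 12 genes of mitochondrial transcription and RNA stability 2 rose and 2 fell, Polrmt, the mitochondrial RNA polymerase, at -0.26 ± 0.04 (log2, SE; limma adjusted p = 1.66e-07). Of 10 biogenesis regulators 3 rose and 2 fell, shares close to those of all genes. Those that rose included the coactivator genes Ppargc1b and Ppargc1a, up by 1.01 ± 0.12 and 0.50 ± 0.15 (log2, SE; limma adjusted p of 1.84e-08 and 0.00673). Of the 13 mitochondrially encoded subunits, the products of this ribosome, 1 transcript rose and 3 fell, mt-Co2 at 0.21 ± 0.08 and mt-Nd5 at -0.29 ± 0.08 (log2, SE).

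Of the nuclear genes for oxidative phosphorylation subunits 65 of 74 rose and 1 fell, with a median log2 change of 0.27. Of the cytosolic ribosomal proteins 67 of 79 rose and 1 fell, with a median of 0.28. Among them Sdhb, a complex II subunit, rose by 0.49 ± 0.06 and Rpl38, of the cytosolic large subunit, by 0.44 ± 0.07 (log2, SE). Of 36 proteasome subunits 2 rose and 21 fell, with a median of -0.16. The difference between these lists and the members was not tested.

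**Figure D4:**
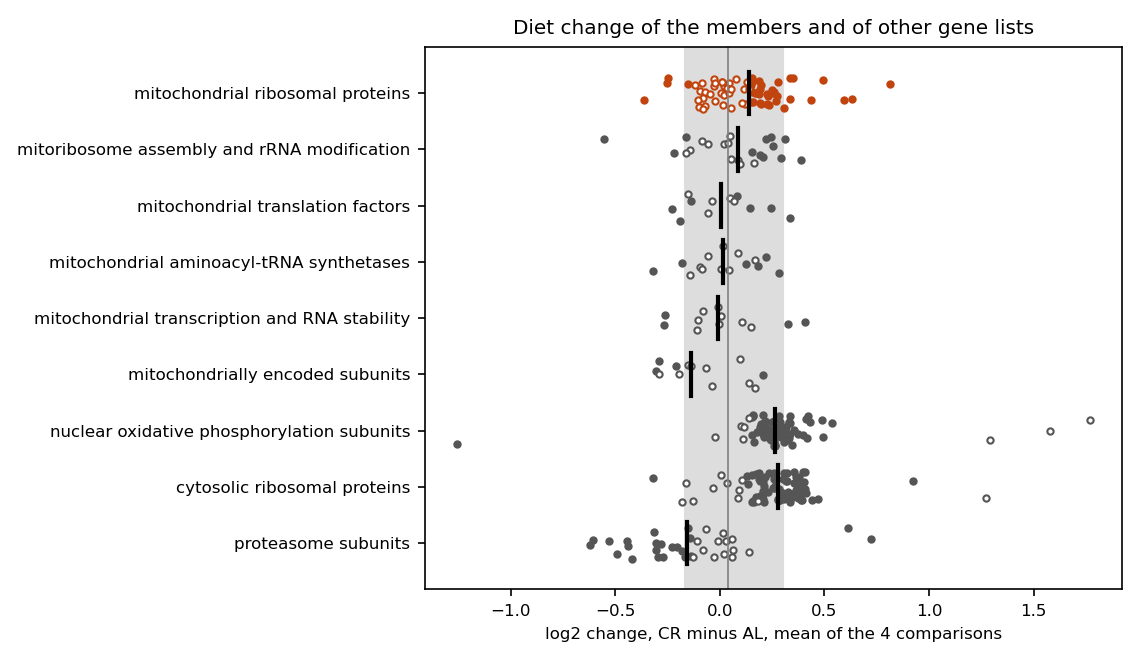
Log2 change on CR relative to AL, mean of the 4 comparisons, for each gene (points, filled where the limma adjusted p is under 0.05) of the members and of 8 other lists, with list medians as black bars, the interquartile range of all genes tested shaded and their median as a grey line. The members' median is 0.14, below those of oxidative phosphorylation (0.27) and cytosolic ribosomal protein genes (0.28).

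The second question was what the exon 3 deletion did. No member was called between d3 and WT in any of the 4 comparisons or in their mean (0 of 70 by limma, edgeR and DESeq2 alike). Of all genes, 0.138% were called in CR males, 0.0436% in AL males, 0% in CR females, 0% in AL females and 0% in the mean. At an unadjusted p under 0.05 there were 8 members in CR males (11.4%, against 8.03% of all genes) and 3 in AL males (4.29%, against 8.14%). There were 27 in CR females (38.6%, against 7.45% of all genes), 5 in AL females (7.14%, against 6.35%) and 2 in the mean (2.86%, against 7.02%). In the authors' deposited table the lowest adjusted p of a member over the 4 comparisons was 0.208, for Mrpl50 in AL males at a log2 fold change of -0.29 in d3 relative to WT.

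The members leaned 1 way in each comparison. In CR females the log2 change of d3 relative to WT was above 0 for 70 of 70 members, with a median of 0.21 against -0.001 over all genes. The lowest unadjusted p there was that of Mrpl30, which changed by 0.32 ± 0.09 (log2, SE; unadjusted p = 0.00113, adjusted p = 0.522 by limma), followed by Mrps21, at 0.40 ± 0.11 (log2, SE; adjusted p = 0.522 by limma). In CR males the change was above 0 for 5 members (median -0.13), in AL males for 11 (median -0.10) and in AL females for 7 (median -0.15). Without d3 CR F replicate 3 the median in CR females was 0.13, and without WT AL F replicate 3 that in AL females was -0.10. Without WT AL M replicate 1 the median in AL males was -0.05, and without the muscle-rich livers that in CR males was -0.24. The members share livers and vary together within them, so 70 members of 1 sign are not 70 independent observations. Cytosolic ribosomal proteins leaned the same ways, with medians of 0.28 in CR females, -0.18 in CR males, -0.11 in AL males and -0.21 in AL females, and 0 of 79 called in each.

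**Figure D5:**
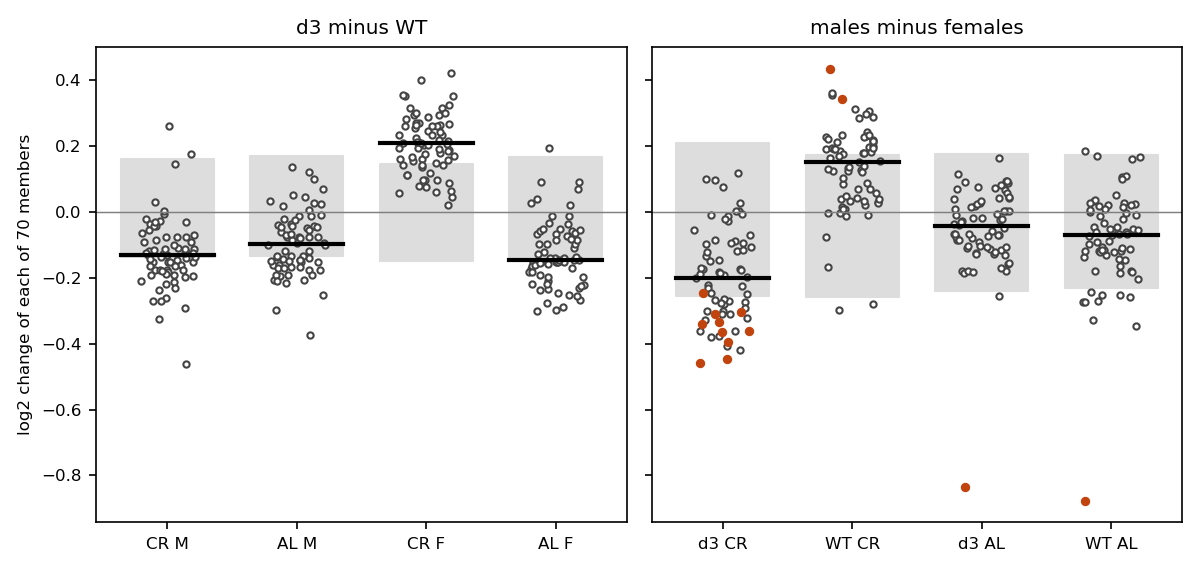
Log2 change of each of the 70 members for d3 relative to WT (left) and for males relative to females (right) in each combination of the other factors, with red points where the limma adjusted p is under 0.05, medians as black bars and the interquartile range of all genes tested shaded. All 70 members lie above 0 for d3 relative to WT in CR females, and the 2 points below -0.8 on the right are Mrpl48 in AL mice.

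The difference in diet change between genotypes was tested directly. No member was called for d3 minus WT averaged over the sexes (0 of 70; 0% of all genes; 10 members, or 14.3%, at an unadjusted p under 0.05, against 5.01% of all genes), and the median difference was 0.16. In females alone, a contrast added after these results were seen, it was above 0 for 68 members with a median of 0.35, and 42 members (60%) had an unadjusted p under 0.05, against 11.1% of all genes. None was called by limma or edgeR in females (0% of all genes), while DESeq2 called 4 higher, Mrpl30, Mrpl36, Mrpl51 and Mrps21, against 1.1% of the 8949 genes it gave an adjusted p. Mrps21 differed by 0.68 ± 0.16 (log2, SE; adjusted p = 0.194 by limma and 0.0318 by DESeq2). In males, also added later, the median was -0.04, and -0.16 without the muscle-rich livers. There 2 members (2.86%) had an unadjusted p under 0.05, against 4.04% of all genes, and 0 were called, against 0.0218% of all genes. The genotype change did not differ by call between the sexes for any member (0 of 70 and 0% of all genes by limma; 16 members, or 22.9%, at an unadjusted p under 0.05, against 8.3% of all genes; 0 members by edgeR and DESeq2).

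The third question was the difference between the sexes, where 1 member stood out. Mrpl48 had 1390.4, 1419.7, 1219, 1171 and 1132 normalized counts in d3 CR M, against 643, 590.1, 676, 694 and 682 in d3 AL M. In WT CR M it had 1118, 1123, 1175, 1115 and 1163, against 818, 777, 671, 662 and 769.9 in WT AL M. No CR male overlapped an AL male of its genotype. In d3 CR F it had 1439.5, 1522, 1782, 1692 and 1247, against 1439.8, 1142, 1338, 1063 and 944 in d3 AL F. In WT CR F it had 1411, 1283, 1492, 1290.3 and 1439.7, against 1229.7, 1409, 1409, 1456 and 1282 in WT AL F. In females the CR and AL ranges overlapped in both genotypes.

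All AL males lay below all AL females of their genotype for Mrpl48. Males relative to females changed by -0.84 ± 0.095 in d3 on AL and -0.88 ± 0.095 in WT on AL (log2, SE; limma adjusted p of 6.47e-08 and 1.79e-08), and by -0.57 ± 0.05 over the 4 comparisons (limma adjusted p = 1.39e-11). The rise on CR was 0.94 ± 0.095 in d3 males and 0.63 ± 0.095 in WT males (log2, SE; limma adjusted p of 2.56e-09 and 7.34e-06). It was 0.38 ± 0.095 in d3 females (limma adjusted p = 0.00454), and in WT females the change was 0.03 ± 0.095 (limma adjusted p = 0.894). The diet change was larger in males than in females by 0.58 ± 0.10 (log2, SE; limma adjusted p = 0.000159), and this call held in all 40 fits that each left out 1 liver. It was the 1 member called of 70, against 3.07% of all genes. Within WT it was 0.60 ± 0.13 and within d3 0.56 ± 0.13, contrasts added later in which 0.348% and 2.09% of all genes were called (log2, SE; limma adjusted p of 0.0281 and 0.0176). The call within WT held in 12 of 20 fits that each left out 1 liver. Without the 17 muscle-rich livers the difference over both genotypes was 0.52 (limma adjusted p = 0.0558). The overlapping gene Rab6a changed the other way, by -0.20 ± 0.04 on CR and 0.18 ± 0.04 in males relative to females over the 4 comparisons (log2, SE; limma adjusted p of 0.000371 and 0.00278).

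For the other members differences between the sexes were small and rested on fewer groups. Over the 4 comparisons 1 of 70 was higher and 4 lower in males, against 13.6% and 10.3% of all genes, shares below those of all genes. Besides Mrpl48, Mrps18b was higher by 0.21 ± 0.06 and Mrpl33, Mrpl18 and Mrps25 changed by -0.17 ± 0.06, -0.13 ± 0.04 and -0.12 ± 0.04 (log2, SE; limma adjusted p of 0.00478, 0.0313, 0.0104 and 0.0429). The call of Mrps25 held in 22 of 40 fits that each left out 1 liver, and Mrps18b had an adjusted p of 0.324 without the muscle-rich livers. Without d3 CR M replicate 1 or WT AL F replicate 3, 3 members were called.

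In d3 mice on CR 10 members were lower in males and 0 higher, against 3.62% and 5.18% of all genes. They were Mrpl18, Mrpl33, Mrpl36, Mrpl44, Mrpl53, Mrps17, Mrps18a, Mrps21, Mrps25 and Mrps33. Mrpl18, whose human product is known to bind 5S rRNA, lay at 1393 to 1729 normalized counts in d3 CR M (median 1602) and at 1832 to 2182 in d3 CR F (median 1960), with no overlap. Its log2 change was -0.34, with an SE of 0.08 (limma adjusted p = 0.00634). Mrpl53 had the largest change, -0.46 ± 0.13 (log2, SE; limma adjusted p = 0.0214). The count fell to 3 without d3 CR M replicate 5 or d3 CR F replicate 3, to 4 without d3 CR M replicate 3 and to 6 without d3 CR M replicate 1, and it was 16 without d3 CR M replicate 4. It was 0 when the 10 livers were fitted alone and 20 with the muscle level as a covariate.

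In WT mice on CR the members leaned the other way, 62 of 70 above 0 in males relative to females with a median of 0.15. There 2 were called, against 4.57% of all genes: Mrps18b by 0.44 ± 0.11 and Mrpl38 by 0.35 ± 0.10 (log2, SE; limma adjusted p of 0.0162 and 0.0453). The count was 0 without WT CR F replicate 3, 4 without WT CR M replicate 3 or WT CR F replicate 2, and 1 without any other of the 10 livers. On AL, Mrpl48 was the 1 member called in d3 and in WT, against 6.16% and 6.48% of all genes, and without WT AL F replicate 5 there were 2 in WT.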

How the data were processed

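The submitters' processing notes name the build GRCm38 and, with no version, kallisto, DESeq2, Trimmomatic, FastQC and MultiQC. The deposited expression table holds a normalized signal per gene, which is a read count divided by 1 factor per library. Whole reads were recovered for 100% of its values (tolerance 0.01). From the authors' comparison table, log2 fold changes of d3 over WT and deposited p-values (adjusted) were copied.

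Of 17839 rows, 115 that repeated another were dropped, and 13776 genes with a mean of at least 10 were tested with limma 3.58.1 (R 4.3.3; linear model, contrasts, trended empirical Bayes) on log2(value + 1), which understates changes of low genes. All 8 groups entered 1 model, with Benjamini-Hochberg adjustment over genes tested and a threshold of 0.05. The test was tried on simulated counts. Alternatives included edgeR 4.0.16 and DESeq2 1.42.0 on the recovered reads, where edgeR called 3557 genes higher and 3151 lower on CR over the 4 comparisons. Members and lists were chosen with earlier results of these data known. Named were up to 10 called members per direction in the 3 mean comparisons, up to 4 in the others, the extremes of level and spread, Mrps36 and Mrpl12, and up to 4 called genes per list. Mrps5, Mrpl46, Mrps11, Mrpl50, members named without a call, and those listed beyond these limits were chosen after their values were seen. Kallisto, if it did the counting, divides reads of near-identical transcripts by estimation.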

Additional observations from a re-analysis of the deposited data

Results flagged for a closer look

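Levels of 18 named members, of the set as a whole and of the sum of Mrpl23 and Mrpl23-ps1 were examined for a liver far from the other 4 of its group. Such a liver was found in 11 of 160 groups, a share near the 5% or so that chance alone gives. The members share livers, so the 160 are not independent. The mean centred log2 level of the members was 0.471 in d3 CR F replicate 3, against 0.065 to 0.132 in the other 4. WT AL F replicate 3 was high in 4 of the 11: Mrps28 at 675.2 against 404.3 to 436 normalized counts, Mrps25 at 839.4 against 687.3 to 724.3, Mrpl23-ps1 at 969.7 against 520.1 to 642.7, and the sum of Mrpl23 and Mrpl23-ps1 at 1064 against 580.1 to 716.2. The sum contains the Mrpl23-ps1 counts, so it is not a separate observation. Mrps2 was low in d3 CR F replicate 2, at 875.1 against 1252 to 1396, and high in WT AL F replicate 1, at 2008 against 1315 to 1494. Mrps9 was high in d3 CR M replicate 4, at 1046 against 946 to 958.8, and low in WT CR F replicate 4, at 752.1 against 893.7 to 920.5. Mrpl36 was high in d3 AL M replicate 5, at 712.9 against 567.7 to 598.9, and Mrps18b low in WT CR M replicate 3, at 1441 against 1682 to 1744.

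The diet change of Mrpl48 was larger in males than in females by 0.581 on the log2 scale over both genotypes, by 0.600 in WT and by 0.562 in d3 (limma adjusted p of 0.000159, 0.0281 and 0.0176). The cause was not tested.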

How the results depend on the processing

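No paired analysis was possible because the replicate numbers follow the order of the records and pair no livers. Of the recomputed counts of called members, 571 stayed within 1.5 times the reported count and 57 did not. The 571 include every count of 0 that stayed at 0, as in the genotype comparisons, so they overstate how stable the calls were. Without the 17 muscle-rich livers, which leaves 23 livers, the members called on diet were 11 in WT males, 1 in WT females, 17 in d3 females and 1 in d3 males. The members called between the sexes were then 10 over the 4 comparisons, 3 in WT on AL and 0 in WT on CR. The 3 interactions of diet and sex then had 0 each (both genotypes, WT and d3). With the livers compared fitted alone, 3 members were called on diet in WT females, 14 on diet in d3 females, and 0 between the sexes on CR in WT and in d3. With the muscle level as a covariate, the sexes differed in 8 members over the 4 comparisons, 4 in WT on CR and 20 in d3 on CR. In WT on CR edgeR called 1, DESeq2 4 and the fit without a filter on low values 1. DESeq2 called 19 between the sexes in d3 on CR and 4 for the diet change in d3 minus WT females. The log2 change of Mrps36 over the 4 genotype comparisons, not called, was positive with all livers and -0.022 without the muscle-rich livers. The cause was not tested.

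Leaving out each liver in turn gave 12 to 21 members called on diet in WT males, 4 to 8 in WT females, 21 to 33 in d3 females, 5 to 12 in d3 males and 37 to 41 over the 4 comparisons. Between the sexes it gave 1 to 2 in WT on AL, 0 to 4 in WT on CR, 1 to 1 in d3 on AL, 3 to 16 in d3 on CR and 3 to 6 over the 4 comparisons. The diet difference between WT males and WT females ranged over 0 to 1 member. The 5 genotype comparisons kept 0. With 5 livers a group, the level of the whole set had a within-group SD of 0.118 on the log2 scale, and the medians of d3 relative to WT were -0.15 to 0.21, with 0 members called.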
